A study of Mus musculus with 24 samples.

Results

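The matrix metalloproteinase (Mmp), ADAMTS (Adamts), ADAMTS-like (Adamtsl) and TIMP (Timp) genes were followed across 4 genotypes of mouse embryonic fibroblasts (MEFs), in primary and in immortalized cells. The members were all genes of the deposited expression tables whose symbol is Mmp, Adamts or Adamtsl with a number, or Timp1 to Timp4, a rule that uses no measured value. There were 51 of them among 41710 genes: 23 Mmp, 19 Adamts, 5 Adamtsl and 4 Timp genes.

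These proteins decide much of the fate of the extracellular matrix that fibroblasts build. MMPs and ADAMTS enzymes are zinc-dependent proteases that are made as inactive proforms: MMPs cut collagens, gelatin, elastin and many cell surface proteins, while ADAMTS enzymes cut proteoglycans such as aggrecan and versican or remove the ends of procollagens. ADAMTS-like proteins resemble the non-catalytic part of ADAMTS enzymes and bind microfibrils, and TIMPs are secreted inhibitors that block the active site of MMPs and, in the case of Timp3, of several ADAMTS and ADAM enzymes as well.

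The question behind the series is what fibroblasts lose with Myc, a transcription factor that drives growth, with Mlx, the shared partner of a parallel network of related factors, or with both. The groups were WT, MlxKO, MycKO and DKO (both genes lost), with 3 libraries each in primary and in immortalized cells, 24 in all. Every group descends from MEFs of embryos at about E14 to E16 that carry floxed alleles of Myc, Mlx or both together with a tamoxifen-activated Cre (CreER) expressed from the ubiquitous ROSA26 locus. Knockout cells were exposed to 500 nM 4-hydroxytamoxifen (4OHT). WT cells were not excised and received vehicle or, as described for the immortalized controls, medium free of 4OHT. A single WT line mostly served as the control, so that genotype, 4OHT exposure and cell line cannot be told apart. The study reports that primary MycKO and DKO cells were growth-arrested with features of senescence, while WT and MlxKO cells proliferated. It found most immortalized MycKO cells to be tetraploid or nearly so. Growth state and ploidy thus also cannot be told apart from genotype. Cells from several embryos were pooled for a line. The immortalized lines had received SV40 T-antigen and blasticidin resistance from a lentivirus. The study calls the libraries of a group biological replicates. The labels do not say whether they come from separate embryo pools or cultures, so p-values measure the spread between these libraries, which may in part be technical.

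Each library held 15986856 to 20966163 reads on genes, at which 3 reads correspond to 0.145 to 0.196 CPM (reads relative to library size, as the authors scaled them), a floor that covers counting error only. Myc fell in primary MycKO and DKO cells from a mean of 93.9 CPM in WT to 26.5 and 21.5 CPM, and Mlx fell in primary MlxKO and DKO cells from 23.7 to 13.5 and 11.2 CPM. In immortalized cells Myc had a mean of 88.5 CPM in WT, 12.7 in MycKO and 6.01 in DKO, and Mlx had a mean of 23.0 CPM in WT, 13.9 in MlxKO and 16.8 in DKO, where the difference from WT missed the threshold (log2 -0.44, limma adjusted p = 0.069). The study itself reports efficient excision of the alleles by PCR and loss of the proteins by immunoblot, in primary and immortalized lines. Only some exons of each gene are floxed, and whether the remaining reads come from the other exons was not tested. All 12 fibroblast markers examined were expressed in both tables. In primary cells 10 were higher and 1 lower in MycKO, 3 and 1 in MlxKO, and 9 and 2 in DKO cells than in WT. Over all genes tested 20.4% were higher and 21.9% lower in MycKO, 3.75% and 5.14% in MlxKO, and 24% and 25.5% in DKO cells. The sum of the fibroblast markers was 46219 to 50180 CPM in WT, 47449 to 52449 in MlxKO, 61653 to 64192 in MycKO and 62672 to 63504 in DKO libraries. The part of this shift in the differences of the members was not tested. Primary cells also held traces of other cell types: 14 of 14 macrophage markers were lower in MycKO and in DKO than in WT, and their summed level lay between 364 and 709 CPM in WT, 387 and 479 in MlxKO, 63.8 and 94.9 in MycKO, and 125 and 289 in DKO libraries. The summed level of 10 chondrocyte markers was 637 to 820 CPM in primary WT and 190 to 272 CPM in the primary knockout libraries. Of the 7 of them tested there, 2 were higher and 3 lower in MycKO, 0 and 1 in MlxKO, and 2 and 1 in DKO cells. In immortalized cells the chondrocyte markers summed to 26.8 to 32.5 CPM in MycKO libraries and to 169 to 225 CPM in the others. There 6 skeletal muscle markers summed to 191 to 231 CPM in MycKO, 85.6 to 91.2 in DKO, and 9.49 to 22.8 in WT and MlxKO libraries. Only 1 of these 6 was tested there, and Myod1, Myog, Ckm and Myh3 never exceeded 3 reads in a library. In primary cells 6 epithelial markers summed to 16.5 to 19.9 CPM in WT and 1.95 to 4.83 CPM in the knockout libraries, and 6 endothelial markers to 13.3 to 14.6 CPM in WT and 3.15 to 7.39 CPM in the knockout libraries. The muscle markers there summed to 123 to 138 CPM in WT, 64.9 to 70.7 in MlxKO, 80.0 to 81.3 in MycKO, and 120 to 130 in DKO libraries. In primary cells 2 of the 6 epithelial, 1 of the 6 endothelial and 2 of the 6 muscle markers were tested. Immortalized MycKO libraries held 13.3 to 17.6 CPM of the endothelial markers and the other immortalized libraries 2.43 to 6.17 CPM. Only 1 of the 6 was tested there, and Cdh5, Emcn and Tie1 never exceeded 3 reads in a library. Such sums can rest on 1 gene, and the part of other cell types in the differences given here was not tested. The 8 neutrophil markers summed to under 0.4 CPM in every library, and in immortalized cells 10 of the 14 macrophage markers never exceeded 3 reads in a library.

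Immortalized WT library 4 stands apart from WT libraries 2 and 3. Its root mean square log2 difference from them over the genes tested was 0.719 to 0.765, whereas other libraries of a group differed by 0.200 to 0.409. Myc measured 177.5 CPM in library 4 and 48.1 and 39.9 CPM in libraries 2 and 3. Among the members, 15 of the 32 that were tested differed by more than 2-fold between library 4 and the mean of the other WT libraries, 10 of them lower in library 4 and 5 higher, and 0 differed that much between libraries 2 and 3. Adamts1, for example, measured 456, 437 and 139 CPM in WT libraries 2, 3 and 4, and Mmp23 measured 37.1, 50.4 and 2.98 CPM. Results against immortalized WT are therefore given with and without this library, and WT values are listed in the order of libraries 2, 3 and 4.

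Of the 51 members, 35 reached the minimum for testing in the primary table (at least 1 CPM in at least 3 of 12 libraries) and 32 in the immortalized table, 30 in both. The 35 were 14 Mmp, 13 Adamts, 5 Adamtsl and 3 Timp genes, and the 32 were 11, 14, 4 and 3. Mmp9, Mmp10, Mmp12, Adamts15 and Adamtsl2 were tested in primary cells alone, and Adamts18 and Adamts20 in immortalized cells alone. The 14 members below the minimum in both tables were the collagenases Mmp1a, Mmp1b and Mmp8, the matrilysin Mmp7, the enamel protease Mmp20, Mmp21, Mmp24, Mmp25, Mmp27, Adamts8, the von Willebrand factor-cleaving protease Adamts13, Adamts17, Adamts19 and Timp4. Their highest count in any library was 22 reads, and Mmp7 and Mmp20 had 0 reads in all 24 libraries, which allows up to 3 reads in each. In a bulk library, fewer cells that express a gene and less RNA per cell cannot be told apart, and this holds for every difference reported here.

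Per kilobase of exonic sequence, the 3 TIMP genes led in primary cells, with a mean over the 12 libraries of 388 CPM per kb for Timp2, 286 for Timp3 and 205 for Timp1. Mmp2, the gelatinase that fibroblasts make constitutively, followed with 157 CPM per kb, close to Mmp14, the membrane-bound collagenase that activates it, with 154. In immortalized cells Timp2 again led with 378 CPM per kb. The next 4 there were Mmp14 with 94.8, Timp3 with 92.2, Mmp2 with 92.0 and Timp1 with 80.6. The tables were scaled separately, so these levels are set side by side and were not tested against each other.

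In primary MycKO cells most members were higher than in WT. With limma, 26 of the 35 members tested were higher and 2 were lower, against 20.4% higher and 21.9% lower over all 13101 genes tested, and the median log2 difference of the members was 0.60 against 0.00 for all genes. All differences are on the log2(CPM + 1) scale, which understates the change of genes near or below 1 CPM. Of these calls 24 held whichever library was left out, and those of Adamts3, Adamts4, Adamts6 and Mmp16 did not. Primary DKO cells gave 28 higher and 1 lower, with 24% higher and 25.5% lower over all genes and a member median of 0.60. The lower one, Mmp15 (-0.44 ± 0.17 SE, limma adjusted p = 0.039), was not called by edgeR or DESeq2 on the recovered reads, which both gave 28 higher and 0 lower. With each library left out in turn, 26 calls always held, and those of Adamts1, Adamts9 and Mmp15 did not. Primary MlxKO cells differed less from WT: 8 members were higher and 5 lower, where 3.75% and 5.14% of all genes were, and the member median was 0.11. That count fell to 6 without WT library 1, to 7 without MlxKO library 5 and to 8 without MlxKO library 6. The 6 calls that always held were those of Mmp9, Mmp10 and Timp1, which were lower, and of Adamts2, Mmp2 and Mmp23, which were higher. Between primary DKO and MycKO cells 11 members were higher in DKO and 8 lower (10.6% and 11% of all genes), and 18 of these calls held whichever library was left out, Mmp9 being the exception.

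Among immortalized cells the picture was mixed. MycKO cells had 12 of 32 members higher and 6 lower than WT, with 24.4% higher and 23.5% lower over 12880 genes, and without WT library 4 the counts were 12 and 9, with 27.3% and 26.7% over 12855 genes. MlxKO cells had 6 higher and 2 lower (19.1% and 19.9% of all genes), and 10 and 9 without library 4 (23.1% and 23.8%). DKO cells had 8 higher and 2 lower (10.4% and 8.51%), 9 and 3 without library 4 (12.0% and 10.1%), and 17 in all without WT library 3. Over all 12 fits with 1 library left out, 14 of the 18 MycKO calls held (not Adamts1, Adamts4, Adamts10 and Adamts16), 4 of the 8 MlxKO calls (not Adamts2, Adamts20, Mmp15 and Mmp16) and 7 of the 10 DKO calls (not Adamts2, Adamts6 and Mmp2). DKO against MycKO, a comparison that was added after the values were seen, gave 11 higher and 5 lower (14.8% and 14.6%). Its differences use no WT library, but its standard errors and p-values come from the fit of all 4 genotypes, WT library 4 included. Leaving out 1 library at a time gave 12 to 23 calls in that comparison, and 12 of the 16 always held (not Adamts1, Adamts3, Adamts14 and Timp1).

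The interaction between the 2 genes was tested as the difference between DKO and MlxKO minus the difference between MycKO and WT. A value above 0 means that the change with Myc loss was more positive in cells without Mlx. In primary cells 10 members had an interaction above 0 and 9 below (7.47% and 6.07% of all genes), and 15 of these calls held whichever library was left out (not Adamts3, Adamts14, Mmp12 and Mmp15). In immortalized cells the counts were 10 and 11 (23.7% and 23.8%), and 13 and 11 without WT library 4 (28.1% and 28.7%). There 15 of the 21 always held (not Adamts1, Adamts9, Adamts10, Adamtsl5, Mmp3 and Timp1).

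Mmp13, the interstitial collagenase of rodent fibroblasts and hypertrophic chondrocytes (chr9:7272514-7283331, GRCm39, plus strand), was the collagenase that could be tested. In primary cells it measured 36.6, 41.7 and 36.5 CPM in WT, 32.6, 29.8 and 34.0 in MlxKO, 77.9, 75.7 and 69.0 in MycKO and 116, 112 and 122 in DKO libraries. The MycKO libraries lay above all WT libraries and the DKO libraries above all MycKO libraries. The log2 difference from WT was 0.94 ± 0.08 (SE, limma adjusted p = 9e-08) in MycKO and 1.59 ± 0.08 (SE, limma adjusted p = 1.9e-10) in DKO cells. In MlxKO cells it was -0.24 ± 0.08 (SE, limma adjusted p = 0.057), and the interaction was 0.89 ± 0.11 (SE, limma adjusted p = 2.6e-05). The summed chondrocyte markers were lower in these MycKO and DKO libraries than in WT, as given above. The single markers were mixed: of the 7 tested, 2 were higher and 3 lower in MycKO, and 2 and 1 in DKO cells. Their part in the Mmp13 result was not tested.

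In immortalized cells Mmp13 was low. It measured 0.0586, 0.222 and 1.58 CPM in WT, 1.79, 1.20 and 0.97 in MlxKO, 5.78, 4.67 and 5.63 in MycKO and 0.227, 0.452 and 0 in DKO libraries. All MycKO libraries lay above all others. MycKO cells differed from WT by 2.08 ± 0.29 (SE, limma adjusted p = 0.00014), and by 2.48 (limma adjusted p = 3e-07) without WT library 4, whereas DKO cells were lower than MycKO cells by a log2 difference of -2.39 ± 0.29 (SE, limma adjusted p = 7e-05). The interaction had the opposite sign to that in primary cells, at -3.0 ± 0.41 (SE, limma adjusted p = 0.00016) and -3.40 (limma adjusted p = 2.5e-07) without library 4.

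The gelatinases Mmp2 and Mmp9 cut denatured collagen and basement membrane. In primary cells Mmp9 measured 52.4, 48.8 and 33.5 CPM in WT, 17.4, 15.6 and 16.7 in MlxKO, 36.0, 33.4 and 37.2 in MycKO and 45.7, 49.3 and 54.4 in DKO libraries. Mmp9 fell in MlxKO cells, where every library was below every other library of the table. Its log2 difference from WT was -1.36 ± 0.13 (SE, limma adjusted p = 4.2e-06), the lowest of the members on the log2(CPM + 1) scale. With a pseudocount of 0.1 it was -1.41, against -1.50 for Mmp10 and -1.48 for Adamts3. Mmp10 and Adamts3 were also below Mmp9 with edgeR and DESeq2. In MycKO cells the Mmp9 difference was -0.31 ± 0.13 (SE, limma adjusted p = 0.06) with overlapping libraries, and DKO cells were higher than MycKO cells by 0.47 ± 0.13 (SE, limma adjusted p = 0.012). The interaction of Mmp9 was the highest among the primary members, at 1.83 ± 0.18 (SE, limma adjusted p = 2.7e-06). Macrophages are a known source of Mmp9 and of Mmp12. The summed macrophage markers were lowest in MycKO libraries and overlapped between WT and MlxKO libraries, and their part in these results was not tested. In immortalized cells Mmp9 reached at most 9 reads in a library and was not tested.

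Mmp2 was higher in all 3 primary knockouts. It measured 442, 421 and 471 CPM in WT, 535, 535 and 536 in MlxKO, 566, 532 and 550.5 in MycKO and 686, 686 and 715 in DKO libraries, and WT libraries did not overlap with any knockout. The log2 differences from WT were 0.27 ± 0.06 (SE, limma adjusted p = 0.0064) in MlxKO, 0.31 ± 0.06 (SE, limma adjusted p = 0.00033) in MycKO and 0.65 ± 0.06 (SE, limma adjusted p = 1.1e-07) in DKO cells. In immortalized cells the direction in MycKO was the opposite: Mmp2 measured 349, 372 and 337 CPM in WT, 357, 349.9 and 337 in MlxKO, 131, 158 and 159 in MycKO and 468, 453 and 430.4 in DKO libraries. There the MycKO libraries lay below all others and the DKO libraries above all others. MycKO cells differed from WT by -1.24 ± 0.10 (SE, limma adjusted p = 2.2e-06), and by -1.27 without WT library 4, and DKO cells from MycKO cells by 1.59 ± 0.10 (SE, limma adjusted p = 3.5e-07). A noncoding gene on the opposite strand overlaps 24.3% of the exonic bases of Mmp2, and whether reads were counted by strand is not given in the sources used here.

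The stromelysins Mmp3 and Mmp10, which cut proteoglycans and activate other proMMPs, and the macrophage elastase Mmp12 lie with Mmp13 in a cluster on chromosome 9. This cluster held 10 members within 427.1 kb (chr9:7272514-7699587, GRCm39): Mmp13, Mmp12, Mmp1b, Mmp3, Mmp1a, Mmp10, Mmp8, Mmp27, Mmp20 and Mmp7. Only Mmp13, Mmp12, Mmp3 and Mmp10 reached the minimum in primary cells. Mmp3 and Mmp10 share 8.39% and 8.37% of their 50-base stretches with other genes, mostly with each other, so their split of reads is uncertain.

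The promoters of these genes are shown because most members that fell in primary MlxKO cells have letters in common there. So do most members with a primary interaction above 0, a set that holds all of those that fell. The link was seen after the values were known and was not tested. The 250 bases before the annotated start of the canonical transcript were read from GRCm39 (gene order by position, all on the plus strand, 5′ to 3′), at chr9:7272264-7272513 for Mmp13, chr9:7347124-7347373 for Mmp12, chr9:7445572-7445821 for Mmp3, chr9:7502103-7502352 for Mmp10 and chr2:164789889-164790138 for Mmp9, a gene outside the cluster. Capitals mark the AP-1 letters TGANTCA and the TATA letters TATAAA, searched on both strands.
Mmp13: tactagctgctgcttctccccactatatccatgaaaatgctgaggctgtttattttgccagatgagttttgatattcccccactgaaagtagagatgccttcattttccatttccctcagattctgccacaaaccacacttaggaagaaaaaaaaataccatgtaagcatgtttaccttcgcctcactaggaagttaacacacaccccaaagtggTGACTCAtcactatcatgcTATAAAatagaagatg
Mmp12: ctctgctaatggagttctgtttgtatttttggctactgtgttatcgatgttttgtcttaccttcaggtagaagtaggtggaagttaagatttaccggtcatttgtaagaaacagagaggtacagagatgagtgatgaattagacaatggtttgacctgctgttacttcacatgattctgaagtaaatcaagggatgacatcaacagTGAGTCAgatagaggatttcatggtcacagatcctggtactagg
Mmp3: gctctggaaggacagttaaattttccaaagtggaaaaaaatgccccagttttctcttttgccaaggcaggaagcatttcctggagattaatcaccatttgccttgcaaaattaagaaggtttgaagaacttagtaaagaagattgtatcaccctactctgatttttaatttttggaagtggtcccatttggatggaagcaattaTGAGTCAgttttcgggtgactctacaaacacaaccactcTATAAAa
Mmp10: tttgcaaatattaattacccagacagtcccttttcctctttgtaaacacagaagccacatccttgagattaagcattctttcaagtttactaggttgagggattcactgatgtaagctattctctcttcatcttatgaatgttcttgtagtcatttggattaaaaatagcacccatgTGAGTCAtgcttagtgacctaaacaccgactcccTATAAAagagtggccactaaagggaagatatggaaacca
Mmp9: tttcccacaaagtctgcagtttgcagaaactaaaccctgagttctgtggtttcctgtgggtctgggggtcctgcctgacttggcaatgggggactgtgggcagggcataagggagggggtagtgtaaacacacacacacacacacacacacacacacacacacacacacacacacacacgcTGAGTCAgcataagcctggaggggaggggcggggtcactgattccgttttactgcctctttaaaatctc
The AP-1 letters began 35 bases before the start in Mmp13, 44 in Mmp12, 46 in Mmp3, 73 in Mmp10 and 69 in Mmp9. The TATA letters lay between the AP-1 letters and the start in Mmp13, Mmp3 and Mmp10.

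Over the members tested in either table, 8 of 37 such windows (21.6%) held the AP-1 letters, against 601 of 12968 windows of tested protein-coding genes (4.63%). They were those of Mmp3, Mmp9, Mmp10, Mmp12, Mmp13, Mmp19, Mmp28 and Adamts3. TATA letters were in 7 of 37 (18.9%) against 7.29% of all, and the E-box letters CACGTG, which Myc and Mlx complexes bind, were in 0 of 37 against 7.67% of all. That difference was not tested. The windows are shorter than the region around the start that the study searched for Myc and Mlx sites. The count therefore does not show that the members lack such sites. Of the 5 members lower in primary MlxKO cells, 4 held the AP-1 letters, Timp1 being the exception, against 7.19% of the windows of all genes lower there, and 0 of the 8 members higher did. Of the 10 members with a primary interaction above 0, 6 held them, against 7.02% of the windows of all such genes, and 0 of the 9 below 0 did. These 6 include the 4 holders lower in MlxKO cells (Adamts3, Mmp3, Mmp9 and Mmp10). A lower MlxKO value raises the interaction by its definition, so the 2 counts are not separate observations. Mmp3, Mmp10, Mmp12 and Mmp13 also lie in 1 gene cluster, so their windows may not be independent. A match of letters is a description of these windows and says nothing of binding. In immortalized cells 0 of the 10 members with an interaction above 0 and 2 of the 11 below held the AP-1 letters.

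Mmp10 measured 5.93, 5.38 and 4.03 CPM in primary WT, 1.55, 1.61 and 2.05 in MlxKO, 6.93, 6.21 and 6.38 in MycKO and 9.35, 7.55 and 7.26 in DKO libraries. The MlxKO libraries lay below all others and the DKO libraries above all others. The log2 difference from WT was -1.15 ± 0.14 (SE, limma adjusted p = 0.0001) in MlxKO and 0.57 ± 0.14 (SE, limma adjusted p = 0.0036) in DKO cells, and the interaction was 1.41 ± 0.20 (SE, limma adjusted p = 0.00015). Mmp3 also had its lowest mean in MlxKO and its highest in DKO cells, with 177, 158 and 139 in WT, 94.9, 105 and 130.0 in MlxKO, 153, 123 and 139 in MycKO and 229.8, 213 and 263 in DKO libraries. Its differences from WT were -0.52 ± 0.12 (SE, limma adjusted p = 0.0085) in MlxKO and 0.57 ± 0.12 (SE, limma adjusted p = 0.00059) in DKO cells, with an interaction of 1.29 ± 0.16 (SE, limma adjusted p = 3.8e-05). In immortalized cells Mmp3 measured 2.52, 3.72 and 20 CPM in WT, where library 4 was above the others, and 22.6, 12.8 and 15.5 CPM in MlxKO libraries. The MlxKO difference was 1.31 ± 0.51 (SE, limma adjusted p = 0.058) with library 4 and 2.10 (limma adjusted p = 3e-05) without it, and the interaction was -1.94 ± 0.72 (SE, limma adjusted p = 0.043) with it and -2.73 without it, of the opposite sign to the primary value.

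Mmp12 measured 13.1, 11.3 and 4.97 CPM in primary WT, 5.33, 5.38 and 4.98 in MlxKO, 4.27, 4.58 and 3.29 in MycKO and 6.08, 5.23 and 11.9 in DKO libraries. It fell in MycKO cells by a log2 difference of -1.01 ± 0.28 (SE, limma adjusted p = 0.0071), and its interaction was 1.42 ± 0.39 (SE, limma adjusted p = 0.021). WT library 3 and DKO library 15 stood apart from the others of their groups. All macrophage markers were lower in the same MycKO libraries and 11 of the 14 were higher in DKO than in MycKO cells, and their part in the Mmp12 result was not tested. Mmp11, a stromelysin that is activated inside the cell by furin, rose from 43.6, 42.0 and 39.4 CPM in primary WT to 92.3, 67.6 and 89.2 in MycKO and 76.3, 78.0 and 80.8 in DKO libraries, with no overlap. The differences were 0.96 ± 0.10 (SE, limma adjusted p = 1.4e-06) and 0.90 ± 0.10 (SE, limma adjusted p = 2.2e-06). In immortalized MycKO cells Mmp11 was higher by 0.62 ± 0.17 (SE, limma adjusted p = 0.01), and by 0.38 (limma adjusted p = 0.011) without WT library 4.

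**Figure D1:**
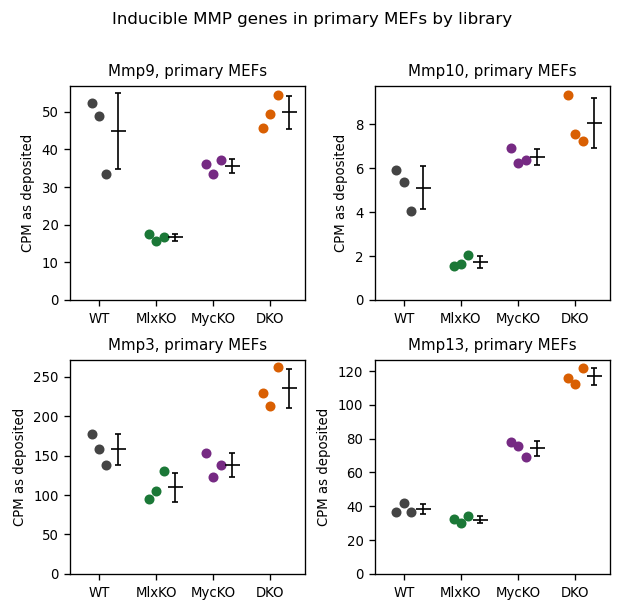
CPM of Mmp9, Mmp10, Mmp3 and Mmp13 in each primary library (points, coloured by genotype), with the mean and SD of the 3 libraries as a bar beside them. The MlxKO libraries of Mmp9 (15.6 to 17.4 CPM) and Mmp10 (1.55 to 2.05 CPM) lie below all other libraries, and the DKO libraries of Mmp13 (112 to 122 CPM) above all others.

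Of the membrane-type MMPs, which act at the cell surface, 4 of 6 were tested. In primary cells 3 were higher in MycKO (Mmp14, Mmp16 and Mmp17) and the same 3 in DKO cells, and 0 were called in MlxKO cells. Mmp14 measured 670.0, 705 and 659 CPM in WT, 1166, 988 and 1125 in MycKO and 1339, 1320.1 and 1332 in DKO libraries. Each group lay above the one before, with log2 differences from WT of 0.69 ± 0.07 (SE, limma adjusted p = 7.6e-07) and 0.97 ± 0.07 (SE, limma adjusted p = 1.3e-08), and the DKO cells were higher than MycKO cells by 0.29 ± 0.07 (SE, limma adjusted p = 0.0059). Mmp17, a membrane-type MMP held by a lipid anchor, measured 19.1, 16.2 and 19.5 CPM in WT, 50.3, 37.6 and 47.4 in MycKO and 33.6, 38.3 and 38.4 in DKO libraries, with differences of 1.25 and 0.97 (limma adjusted p = 1.3e-07 and 1.3e-06). Mmp15 was lower in DKO than in MycKO cells by a log2 difference of -0.80 ± 0.17 (SE, limma adjusted p = 0.0026).

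Mmp17 showed the highest rise of the members in immortalized MycKO cells. It measured 0.996, 1.44 and 1.77 CPM in WT, 2.23, 1.85 and 1.89 in MlxKO, 15.2, 17.7 and 18.7 in MycKO and 7.68, 7.13 and 7.95 in DKO libraries. The MycKO libraries lay above the DKO libraries and these above all WT and MlxKO libraries. The differences from WT were 2.93 ± 0.16 (SE, limma adjusted p = 7.7e-08) in MycKO and 1.85 ± 0.16 (SE, limma adjusted p = 1.5e-05) in DKO cells, and 3.04 and 1.96 without WT library 4. Mmp16 was higher in all 3 immortalized knockouts, by 0.77 in MlxKO cells, 0.99 in MycKO cells and 1.15 in DKO cells, and by 0.43, 0.65 and 0.81 without library 4, called each time. Mmp15 was higher in MlxKO (0.76, and 0.60 without library 4) and MycKO cells (0.95 and 0.79). Mmp14 was called in none of the immortalized comparisons, with or without library 4, at 0.44 ± 0.19 (SE, limma adjusted p = 0.074) in MycKO and 0.51 ± 0.19 (SE, limma adjusted p = 0.082) in DKO cells.

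Among the other MMPs, Mmp19, Mmp23 and Mmp28 were tested, and all 3 were higher in primary MycKO and DKO cells. Mmp23, which is anchored in the membrane by its amino terminus, measured 29.5, 30.8 and 32.5 CPM in WT, 46.1, 46.8 and 50.7 in MlxKO, 49.6, 42.7 and 50.4 in MycKO and 76.0, 70.8 and 75.6 in DKO libraries. It was the one of them that also rose in MlxKO cells, by 0.61 ± 0.08 (SE, limma adjusted p = 0.0001), and the DKO difference was 1.24 ± 0.08 (SE, limma adjusted p = 3.3e-09). The interaction of 0.02 ± 0.11 (SE, limma adjusted p = 0.94) missed the threshold. Mmp28 (epilysin) rose by 0.98 ± 0.14 (SE, limma adjusted p = 2.9e-05) in MycKO cells. In immortalized cells Mmp23 measured 9.58, 10.2 and 10.0 CPM in MlxKO libraries, and its difference from WT was -0.86 ± 0.68 (SE, limma adjusted p = 0.33) with WT library 4 and -2.02 (limma adjusted p = 1.5e-06) without it. Genes on the opposite strand overlap 36.8% of the exonic bases of Mmp19 and 12.9% of those of Mmp28.

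The ADAMTS hyalectanases cut aggrecan and versican. All 5 that were tested in primary cells (Adamts1, Adamts4, Adamts5, Adamts9 and Adamts15) were higher in MycKO cells, 4 were higher in DKO cells and 1, Adamts15, in MlxKO cells. Adamts1 and Adamts5 are neighbours on chromosome 16 (chr16:85590579-85698716, GRCm39). Adamts5, the main aggrecanase of mouse cartilage, measured 214, 233 and 259 CPM in WT, 264, 276 and 232 in MlxKO, 546, 595 and 574 in MycKO and 448, 433 and 413 in DKO libraries. MycKO libraries were above DKO libraries and these above the rest, with differences from WT of 1.28 ± 0.08 (SE, limma adjusted p = 4.3e-09) and 0.87 ± 0.08 (SE, limma adjusted p = 1.2e-07). Adamts1 measured 325, 339 and 358 CPM in WT, 394, 419 and 358 in MlxKO, 715, 777 and 719 in MycKO and 390.1, 400.3 and 384 in DKO libraries. Its rise in MycKO cells was 1.11 ± 0.07 (SE, limma adjusted p = 3.4e-09), while the DKO difference was 0.20 ± 0.07 (SE, limma adjusted p = 0.017) and the interaction, the lowest of the primary members, was -1.10 ± 0.09 (SE, limma adjusted p = 5.2e-07).

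Adamts9 was likewise highest in MycKO cells, with 31.5, 39.3 and 38.6 CPM in primary WT, 68.5, 74.7 and 71.6 in MycKO and 46.6, 40.0 and 43.0 in DKO libraries. DKO cells were lower than MycKO cells by a log2 difference of -0.72 ± 0.09 (SE, limma adjusted p = 1.1e-05), as were Adamts1 with -0.91 and Adamts5 with -0.41. Adamts15 was low, at 2.09, 3.15 and 3.04 CPM in WT and 8.12, 6.76 and 11.1 CPM in DKO libraries, and was higher in all 3 knockouts, by 0.71 in MlxKO cells, 1.05 in MycKO cells and 1.35 in DKO cells (limma adjusted p = 0.019, 0.00017 and 1.1e-05). Adamts4 rose in MycKO cells by 0.32 ± 0.12 (SE, limma adjusted p = 0.041), with overlapping libraries.

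In immortalized cells Adamts1 moved the other way with Myc loss. It measured 313, 252 and 256 CPM in MlxKO, 119.7, 169 and 159.7 in MycKO and 347, 327 and 306 in DKO libraries, so that the MycKO libraries overlapped WT library 4 but not the other WT libraries. The MycKO difference from WT was -1.03 ± 0.35 (SE, limma adjusted p = 0.028), and -1.59 (limma adjusted p = 7.3e-07) without library 4. Adamts5 measured 281, 236 and 137 CPM in WT, 140.0, 159 and 147 in MycKO and 299, 289 and 265 in DKO libraries, and its MycKO difference was -0.49 ± 0.20 (SE, limma adjusted p = 0.06) with library 4 and -0.79 (limma adjusted p = 3.4e-05) without it. DKO cells were higher than MycKO cells in Adamts1 by 1.14 ± 0.35 (SE, limma adjusted p = 0.027) and in Adamts5 by 0.93 ± 0.20 (SE, limma adjusted p = 0.0038). Adamts4 rose in MlxKO cells from 11.7, 11.4 and 17.2 CPM in WT to 27.5, 38.4 and 35.6 CPM, a difference of 1.28 ± 0.21 (SE, limma adjusted p = 0.00097), and 1.46 without library 4. Adamts20 was higher in DKO than in MycKO cells by 1.17 ± 0.20 (SE, limma adjusted p = 0.00084) and than in WT by 1.01 (0.92 without library 4), while its MlxKO call (0.54 ± 0.20 SE, limma adjusted p = 0.049) was lost without library 4, at 0.45 (limma adjusted p = 0.091).

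**Figure D2:**
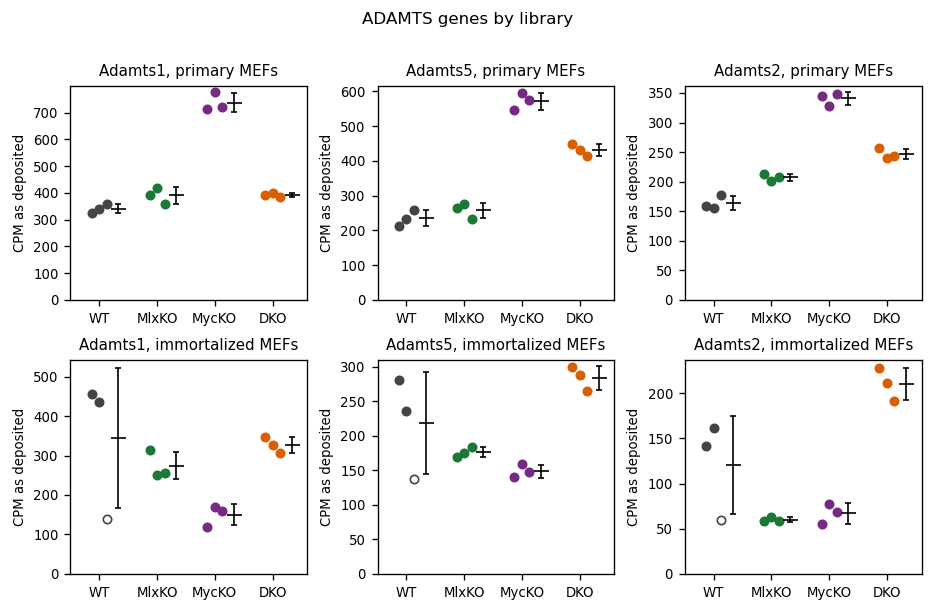
CPM of Adamts1, Adamts5 and Adamts2 in each primary library (top row) and each immortalized library (bottom row), with the mean and SD of the 3 libraries as a bar, and immortalized WT library 4 as an open circle. The MycKO libraries are the highest in all 3 primary panels, for example 715 to 777 CPM for Adamts1, and they lie below all DKO libraries in the 3 immortalized panels.

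The procollagen N-proteinases Adamts2, Adamts3 and Adamts14 remove the amino-terminal propeptides of fibrillar procollagens. Adamts2 measured 159, 156 and 178 CPM in primary WT, 213, 201 and 208 in MlxKO, 345, 329 and 349 in MycKO and 256, 239.9 and 244 in DKO libraries. No 2 groups overlapped, and the differences from WT were 0.34 ± 0.06 (SE, limma adjusted p = 0.0022) in MlxKO, 1.05 ± 0.06 (SE, limma adjusted p = 3.2e-09) in MycKO and 0.59 ± 0.06 (SE, limma adjusted p = 8.4e-07) in DKO cells, with an interaction of -0.80 ± 0.09 (SE, limma adjusted p = 8.2e-06). Adamts3 was low, with 1.35, 1.25 and 1.93 CPM in WT, 0.267, 0.419 and 0.873 in MlxKO and 0.610, 0.785 and 0.996 in MycKO libraries. It fell in MlxKO (-0.73 ± 0.19 SE, limma adjusted p = 0.02) and MycKO cells (-0.48 ± 0.19 SE, limma adjusted p = 0.049). The MycKO call was not made on the recovered reads by edgeR (edgeR adjusted p = 0.064) or DESeq2 (DESeq2 adjusted p = 0.083). Adamts14 passed the threshold against WT in DKO cells and not in the others, with 18.3, 17.7 and 17.8 CPM in WT and 28.7, 29.9 and 31.2 CPM in DKO libraries and a difference of 0.71 ± 0.12 (SE, limma adjusted p = 0.00013).

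In immortalized MycKO cells all 3 had negative differences from WT. Adamts14 measured 12.4, 17.0 and 4.38 CPM in WT, 0.511, 2.80 and 2.42 in MycKO and 7.56, 7.13 and 5.69 in DKO libraries. Its MycKO difference was -2.02 ± 0.41 (SE, limma adjusted p = 0.0017), and -2.52 without library 4. This was the lowest of the members there on the log2(CPM + 1) scale, which understates falls to below 1 CPM. By group means Adamts3 fell further in proportion, from 3.77 to 0.178 CPM, against 11.3 to 1.91 CPM for Adamts14. Adamts3 measured 2.81, 1.39 and 7.12 CPM in WT and 0.256, 0.110 and 0.169 CPM in MycKO libraries and differed from WT by -1.83 ± 0.34 (SE, limma adjusted p = 0.00093), or -1.36 without library 4. Adamts2 measured 141, 161 and 59.2 CPM in WT, 58.2, 63.5 and 58.9 in MlxKO, 55.1, 77.7 and 68.7 in MycKO and 228, 211 and 192 in DKO libraries, and its MycKO difference passed the threshold only without library 4 (-0.73 ± 0.28 SE, limma adjusted p = 0.051 with it and -1.17 (limma adjusted p = 7.6e-06) without it). Its MlxKO difference was -0.87 ± 0.28 (SE, limma adjusted p = 0.03), and -1.31 without library 4. All 3 were higher in DKO than in MycKO cells, by 1.64 for Adamts2, 1.52 for Adamts14 and 0.99 for Adamts3 (limma adjusted p = 0.00093, 0.014 and 0.043). Of the 50-base stretches of Adamts3, 5.45% also occur in other genes.

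Of the other ADAMTS genes 5 were tested in primary and 6 in immortalized cells. Adamts10, which binds fibrillin microfibrils, measured 56.5, 58.5 and 67.7 CPM in primary WT, 152, 139 and 148 in MycKO and 97.2, 111 and 111 in DKO libraries. It rose by 1.26 ± 0.09 (SE, limma adjusted p = 3.3e-08) in MycKO and 0.79 ± 0.09 (SE, limma adjusted p = 2.8e-06) in DKO cells, with no overlap. Adamts12 rose by 0.89 ± 0.10 (SE, limma adjusted p = 3.1e-06) and 1.04 ± 0.10 (SE, limma adjusted p = 3.7e-07), Adamts7, which like Adamts12 cuts the cartilage protein Comp, by 0.57 and 0.47, and Adamts6 by 0.31 and 0.58, all past the threshold. None of the 5 was called in primary MlxKO cells.

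In immortalized cells these genes showed some of the widest differences among genotypes. Adamts18 measured 2.23, 1.05 and 5.11 CPM in WT, 2.81, 2.75 and 2.04 in MlxKO, 1.07, 1.87 and 2.25 in MycKO and 25.9, 25.2 and 18.8 in DKO libraries. The DKO libraries lay above all others, by 2.81 ± 0.32 (SE, limma adjusted p = 0.00018) against WT (3.22 without library 4) and 3.16 ± 0.32 (SE, limma adjusted p = 1.6e-05) against MycKO cells. Adamts6 measured 32.1, 26.2 and 55.5 CPM in WT, 37.0, 30.6 and 31.9 in MlxKO, 84.9, 92.7 and 97.0 in MycKO and 20, 23.1 and 23.9 in DKO libraries. It was higher in MycKO cells by 1.32 ± 0.21 (SE, limma adjusted p = 0.00037), or 1.62 without library 4, and lower in DKO than in MycKO cells by a log2 difference of -1.99 ± 0.21 (SE, limma adjusted p = 2.1e-05), while its fall in DKO cells against WT (-0.67 ± 0.21 SE, limma adjusted p = 0.044) was lost without library 4, at -0.37 (limma adjusted p = 0.06).

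Adamts7 measured 3.75, 3.94 and 3.96 CPM in immortalized WT, 8.81, 10.8 and 10.0 in MlxKO, 8.08, 12.1 and 12.4 in MycKO and 4.15, 3.79 and 3.04 in DKO libraries. It rose in both single knockouts, by 1.15 ± 0.17 (SE, limma adjusted p = 0.00069) in MlxKO and 1.26 ± 0.17 (SE, limma adjusted p = 0.00013) in MycKO cells, and the DKO difference was -0.07 ± 0.17 (SE, limma adjusted p = 0.79). Without WT library 4 these were 1.16, 1.27 and -0.06. Adamts16 was low, with 0.937, 0.666 and 2.43 CPM in WT, 3.48, 5.61 and 5 in MlxKO, 0.153, 0.604 and 0.225 in MycKO and 0 in all 3 DKO libraries, which allows up to 3 reads in each. Its MlxKO difference was 1.33 ± 0.26 (SE, limma adjusted p = 0.0023), and 1.65 without library 4. Its fall in MycKO cells (-0.76 ± 0.26 SE, limma adjusted p = 0.028) was lost without library 4, at -0.45 (limma adjusted p = 0.08), and that in DKO cells (-1.16 ± 0.26 SE, limma adjusted p = 0.0098) was kept, at -0.84 (limma adjusted p = 0.0097), although the size of a difference from 0 depends on the pseudocount. Adamts10 was higher in MycKO cells by 0.38 ± 0.14 (SE, limma adjusted p = 0.043), a call that was also lost without library 4 (0.32, limma adjusted p = 0.085).

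**Figure D3:**
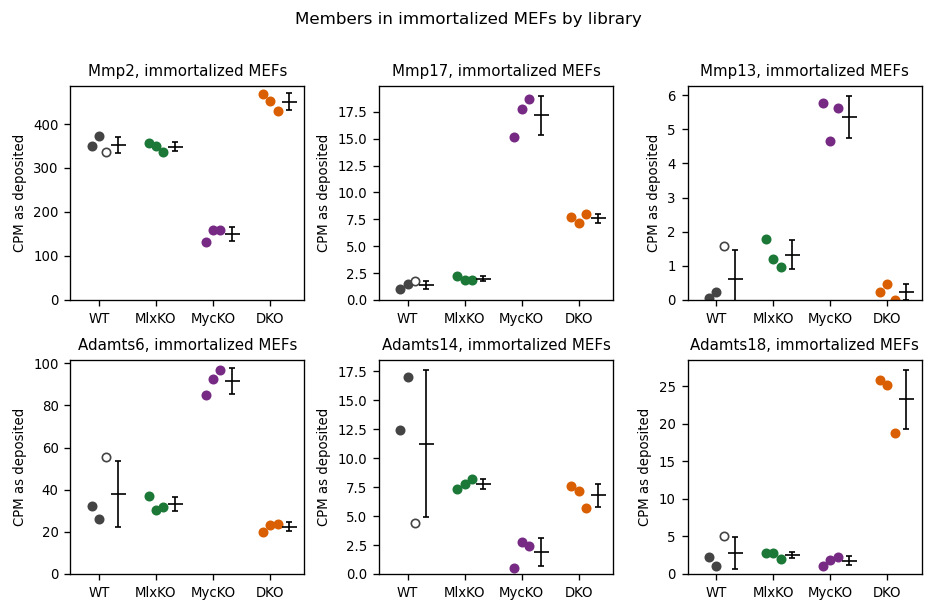
CPM of Mmp2, Mmp17, Mmp13, Adamts6, Adamts14 and Adamts18 in each immortalized library (points, coloured by genotype), with the mean and SD of the 3 libraries as a bar and WT library 4 as an open circle. The MycKO libraries are the highest for Mmp17, Mmp13 and Adamts6 and the lowest for Mmp2, and the DKO libraries of Adamts18 (18.8 to 25.9 CPM) lie above all others.

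ADAMTS-like proteins lack the protease domain. All 5 were tested in primary cells, where 4 were higher in MycKO (Adamtsl1, Adamtsl2, Adamtsl4 and Adamtsl5) and 4 in DKO cells (Adamtsl1, Adamtsl2, Adamtsl3 and Adamtsl4). Adamtsl1 measured 14.8, 16.9 and 16.2 CPM in WT, 15.4, 17.6 and 12.2 in MlxKO, 31.9, 31.1 and 31.6 in MycKO and 49.2, 54.9 and 56.4 in DKO libraries, with differences from WT of 0.94 ± 0.11 (SE, limma adjusted p = 3.2e-06) in MycKO and 1.68 ± 0.11 (SE, limma adjusted p = 4.1e-09) in DKO cells. Adamtsl2, whose human counterpart is mutated in geleophysic dysplasia, had the highest DKO difference of the members at 1.72 ± 0.16 (SE, limma adjusted p = 2.9e-07), from 1.52, 1.03 and 1.69 CPM in WT to 6.23, 7.02 and 7.49 CPM. Adamtsl3 and Adamtsl5 had interactions of opposite sign, at 0.63 and -0.97. Adamtsl3 was higher in DKO (0.98 ± 0.12 SE, limma adjusted p = 3.5e-06) and MlxKO cells (0.44 ± 0.12 SE, limma adjusted p = 0.026) and differed by -0.09 ± 0.12 (SE, limma adjusted p = 0.56) in MycKO cells, whereas Adamtsl5 measured 55.8, 54.9 and 61.5 CPM in WT, 106, 103 and 106 in MycKO and 54.1, 65.1 and 57.8 in DKO libraries, with 0.86 ± 0.07 (SE, limma adjusted p = 1.9e-07) in MycKO and 0.04 ± 0.07 (SE, limma adjusted p = 0.71) in DKO cells. Adamtsl4 had log2 differences of 0.34 in MlxKO cells, 0.54 in MycKO cells and 0.40 in DKO cells, each past the threshold.

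In immortalized cells Adamtsl5 measured 41.1, 40.4 and 23.1 CPM in WT, 87.8, 118 and 119 in MycKO and 97.0, 85.3 and 81.0 in DKO libraries. It rose by 1.64 ± 0.20 (SE, limma adjusted p = 4.2e-05) and 1.35 ± 0.20 (SE, limma adjusted p = 0.00085), or 1.38 and 1.08 without library 4. Adamtsl1 measured 6.38, 9.99 and 1.10 CPM in WT and 15.0, 22.1 and 18.7 in MycKO libraries, a rise of 1.81 ± 0.46 (SE, limma adjusted p = 0.0067), and of 1.11 (limma adjusted p = 0.0014) without library 4. Adamtsl3 was higher in DKO than in MycKO cells by 1.12 ± 0.28 (SE, limma adjusted p = 0.01).

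The 3 TIMP genes expressed in these cells all rose in primary MycKO and DKO cells. Timp3, the TIMP that stays bound to the matrix (chr10:86136236-86185371, GRCm39), measured 1188, 1215 and 1366 CPM in WT, 1709.5, 1625 and 1436 in MlxKO, 3471, 3825 and 3417 in MycKO and 2942, 2923 and 2858 in DKO libraries. The 4 groups did not overlap. The MycKO difference of 1.51 ± 0.08 (SE, limma adjusted p = 1.1e-09) was the highest of the members, the DKO difference was 1.21 ± 0.08 (SE, limma adjusted p = 4.2e-09), and the MlxKO difference 0.34 ± 0.08 (SE, limma adjusted p = 0.011). DKO cells were lower than MycKO cells by a log2 difference of -0.29 ± 0.08 (SE, limma adjusted p = 0.011). Timp3 lies inside Syn3, which is on the opposite strand and overlaps 21.3% of its exonic bases.

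Timp1, on chromosome X, went in opposite directions in the single knockouts. It measured 376, 359.6 and 308 CPM in primary WT, 252, 239 and 259 in MlxKO, 499, 433 and 494 in MycKO and 540.1, 528 and 515 in DKO libraries. It fell in MlxKO cells, with a log2 difference of -0.47 ± 0.08 (SE, limma adjusted p = 0.00092), and rose in MycKO (0.45 ± 0.08 SE, limma adjusted p = 0.00014) and DKO cells (0.60 ± 0.08 SE, limma adjusted p = 5.8e-06), and the interaction was 0.62 ± 0.11 (SE, limma adjusted p = 0.00065). Timp2, which also helps Mmp14 to activate proMmp2, measured 1263, 1286 and 1330.4 CPM in WT, 1553, 1477 and 1436 in MlxKO, 1851, 1888 and 1857 in MycKO and 2313, 2257 and 2269.6 in DKO libraries. The groups did not overlap and rose in that order, by 0.20, 0.53 and 0.82 (limma adjusted p = 0.035, 1.8e-06 and 1.2e-08).

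In immortalized cells Timp3 was lower in both single knockouts. It measured 823, 890.4 and 957 CPM in WT, 703, 568 and 591 in MlxKO, 467, 545 and 526 in MycKO and 978, 992 and 973 in DKO libraries, so that WT and DKO libraries lay above all MlxKO and MycKO libraries. The differences from WT were -0.52 ± 0.12 (SE, limma adjusted p = 0.0052) in MlxKO and -0.79 ± 0.12 (SE, limma adjusted p = 0.00022) in MycKO cells, and -0.47 and -0.74 without library 4. DKO cells were higher than MycKO cells by 0.94 ± 0.12 (SE, limma adjusted p = 8.7e-05). Timp1 measured 82.4, 102 and 171 CPM in WT, 129, 139 and 139.8 in MlxKO, 270.1, 213 and 212 in MycKO and 132, 143 and 159.6 in DKO libraries, and rose in MycKO cells by 1.02 ± 0.21 (SE, limma adjusted p = 0.002), or 1.32 without library 4. Timp2 measured 1615, 1642 and 1079 CPM in WT and 2386, 2454 and 2441 CPM in DKO libraries and was higher in DKO cells by 0.77 ± 0.16 (SE, limma adjusted p = 0.0064), or 0.58 without library 4. Timp4 reached at most 5 reads in a primary and 22 reads in an immortalized library.

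**Figure D4:**
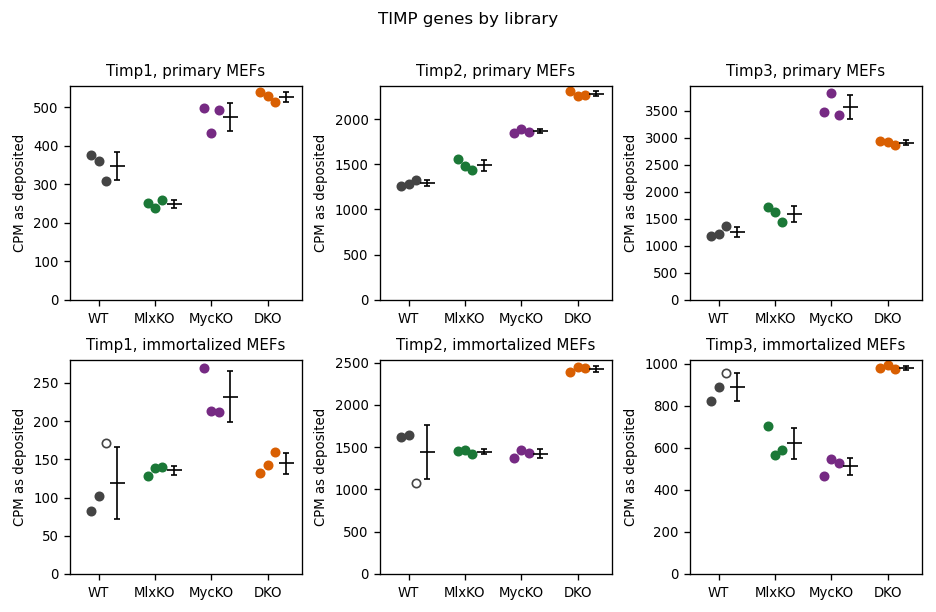
CPM of Timp1, Timp2 and Timp3 in each primary library (top row) and each immortalized library (bottom row), coloured by genotype, with the mean and SD of the 3 libraries as a bar and immortalized WT library 4 as an open circle. In primary cells the MycKO and DKO libraries of all 3 genes lie above the WT libraries, and in immortalized cells the MycKO libraries of Timp3 (467 to 545 CPM) lie below all WT libraries (823 to 957 CPM).

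Set side by side, the 2 tables did not give the same signs, and the number of opposite signs depended on immortalized WT library 4. Of the 30 members tested in both, 15 were called in both for MycKO against WT. Of these, 12 went in the same direction (11 higher and Adamts3 lower) and 3 in opposite directions, which were Adamts1, Mmp2 and Timp3. The primary call of Adamts3 was not made by edgeR or DESeq2. Without library 4, 18 were called in both and 6 were opposite, the added ones being Adamts2, Adamts5 and Mmp23. Over the 12402 genes tested in both tables, 21.1% were called in both for this contrast, and 24.1% of those went in opposite directions (33% without library 4), against 20% of the members called in both (33.3% without library 4).

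For MlxKO against WT 2 members were called in both, Adamts2 and Timp3, both higher in primary and lower in immortalized cells. Without library 4 these were 7, all opposite: Adamts2, Adamts3, Adamtsl3, Mmp3, Mmp23, Timp1 and Timp3. Over all genes 3.47% were called in both for MlxKO, and 66% of those were opposite (72.6% without library 4). For DKO against WT 6 members were called in both, 5 in the same direction (Adamts2, Mmp16, Mmp17, Mmp2 and Timp2), with Adamts6 opposite. Without library 4 there were 8, of which Adamts1 and Adamts14 were opposite. Of all genes 10.9% were called in both for DKO, and 21.7% of those were opposite (32.4% without library 4).

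For DKO against MycKO, 9 members were called in both, 4 in the same direction and 5 opposite (Adamts1, Adamts2, Adamts5, Mmp13 and Timp3). The WT libraries do not enter this difference, but they enter its estimate of the spread. Of all genes 8.87% were called in both there and 31.7% of those were opposite. For the interaction 13 members were called in both, 5 in the same direction and 8 in opposite directions, and 14 without library 4, of which 9 were opposite. Of all genes 7.18% were called in both for the interaction, and 53.8% of those were opposite. The difference between the tables was not tested, because they were scaled separately.

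Other genes of the same pathway were counted by lists. No list below was tested against the share of all genes that passed the threshold. In MycKO cells that share was 20.4% higher and 21.9% lower for primary, and 24.4% and 23.5% for immortalized cells. The shares of the other comparisons with WT are given above. The lists are short, and counts such as 2 higher and 2 lower of 8 in immortalized MycKO cells lie near the share of all genes. Of 8 tested genes that inhibit or clear these proteases or bind them in the matrix, 6 were higher in primary MycKO cells, 7 in primary DKO cells and 0 in primary MlxKO cells, where 2 were lower. Reck, a membrane-bound inhibitor of MMPs, was at 36.0 ± 6.07 CPM in primary WT and 79.4 ± 4.54 CPM in primary DKO cells (mean ± SD, n = 3), a difference of 1.13 ± 0.10 (SE, limma adjusted p = 2.3e-07). In immortalized MycKO cells 2 of the 8 were higher and 2 lower, or 3 and 3 without WT library 4. The largest fall there was that of Serpine2, an inhibitor of thrombin and plasminogen activators, from 322 ± 48.4 CPM in WT to 17.2 ± 2.84 CPM in MycKO cells, by a log2 difference of -4.15 ± 0.15 (SE, limma adjusted p = 4.7e-09) and -4.04 without library 4. DKO cells were at 433 ± 25.1 CPM. In immortalized MlxKO cells 0 were higher and 2 lower, 1 of them Thbs2, a matrix protein through which Mmp2 is cleared, by a log2 difference of -1.16 ± 0.24 (SE, limma adjusted p = 0.0036), or -0.79 without library 4.

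Of 8 tested activators and plasminogen system genes, 3 were higher and 1 lower in primary MycKO cells, 0 and 2 in MlxKO cells, and 3 and 0 in DKO cells. Pcsk5, a proprotein convertase, was the 1 member of the list past a log2 difference of 1, at 1.40 ± 0.10 (SE, limma adjusted p = 2.9e-08) in MycKO and 1.11 ± 0.10 (SE, limma adjusted p = 2e-07) in DKO cells. In immortalized cells the counts were 5 and 2, 4 and 2, and 4 and 0, and without library 4 they were 4 and 2, 2 and 2, and 4 and 0. The urokinase receptor Plaur was higher in immortalized DKO cells by 1.13 ± 0.22 (SE, limma adjusted p = 0.0045), or 1.41 without library 4, and the matriptase gene St14 in MlxKO cells by 1.47 ± 0.29 (SE, limma adjusted p = 0.0027), or 1.28 (limma adjusted p = 0.0031) without library 4. Of 8 ADAM sheddases, 5 were higher and 2 lower in primary MycKO, 0 and 1 in MlxKO, and 4 and 1 in DKO cells. Adam8, which myeloid cells express, fell in primary MycKO cells from 37.6 ± 11.9 to 5.63 ± 1.32 CPM, by a log2 difference of -2.51 ± 0.25 (SE, limma adjusted p = 7.4e-07), in the libraries in which all macrophage markers were lower, whose part in it was not tested. Adam33 was higher in primary MycKO cells by 1.05 ± 0.09 (SE, limma adjusted p = 1.9e-07) and lower in DKO than in MycKO cells by a log2 difference of -1.25 ± 0.09 (SE, limma adjusted p = 5.3e-08). In immortalized MycKO cells 4 were higher and 2 lower, with and without library 4, with Adam19 at 2.29 ± 0.20 (SE, limma adjusted p = 3.6e-06) and Adam12 at 2.22 ± 0.57 (SE, limma adjusted p = 0.0075), or 2.55 and 3.16 without it. Adam33 was higher in immortalized MlxKO cells by 1.59 ± 0.18 (SE, limma adjusted p = 0.00012), or 1.79 without library 4.

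Among 4 tested procollagen C-proteinases and their enhancers, 3 were higher in primary MycKO cells. In primary DKO cells 2 were higher and 1, the enhancer Pcolce2, was lower, by a log2 difference of -1.16 ± 0.11 (SE, limma adjusted p = 2.8e-07), and in immortalized DKO cells Pcolce2 was lower by a log2 difference of -2.39 ± 0.15 (SE, limma adjusted p = 1.7e-06), or -2.41 without library 4. Tll1, a C-proteinase, was higher in immortalized MycKO cells by 3.11 ± 0.75 (SE, limma adjusted p = 0.0051), or 4.40 without library 4. Of 11 substrates and microfibril genes tested in primary cells, 8 were higher and 3 lower in MycKO, 1 and 2 in MlxKO, and 7 and 1 in DKO cells. Elastin (Eln) rose in primary MlxKO cells by 1.53 ± 0.13 (SE, limma adjusted p = 2.2e-06), and Thsd4, a microfibril protein related to the ADAMTS-like family, rose in primary MycKO cells by 1.32 ± 0.16 (SE, limma adjusted p = 6.4e-06). Papln (papilin), another relative, fell in all 3 primary knockouts, by log2 differences of -1.34 ± 0.17 (SE, limma adjusted p = 0.0001) in MlxKO cells, -1.34 ± 0.17 (SE, limma adjusted p = 8.7e-06) in MycKO cells and -1.51 ± 0.17 (SE, limma adjusted p = 1.8e-06) in DKO cells. Comp, a cartilage matrix protein, rose in primary DKO cells by 1.62 ± 0.17 (SE, limma adjusted p = 1e-06), from 1.65 ± 0.314 to 7.12 ± 0.302 CPM. In immortalized MycKO cells 1 of 10 was higher and 7 were lower, or 2 and 8 without library 4, with Eln at 68.1 ± 50.8 CPM in WT and 0.933 ± 0.0891 CPM in MycKO cells, a difference of -4.76 ± 0.50 (SE, limma adjusted p = 1.6e-05) and -5.58 without library 4. Comp was lower in immortalized MlxKO cells by a log2 difference of -2.77 ± 0.97 (SE, limma adjusted p = 0.039), or -4.43 without library 4, and Fbn2 (fibrillin-2) and Acan (aggrecan) were lower in DKO cells, by log2 differences of -2.95 ± 0.32 (SE, limma adjusted p = 0.00012) and -1.78 ± 0.28 (SE, limma adjusted p = 0.0014) (-2.46 and -1.49 without library 4).

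The 8 AP-1 subunits, the proteins that bind the letters shown above, were all tested. In primary cells 0 were higher and 1 lower in MycKO, 0 and 3 in MlxKO, and 2 and 3 in DKO cells. Fos was at 29.7 ± 2.80 CPM in primary WT, 17.4 ± 10.4 in MlxKO cells, 33.4 ± 1.72 in MycKO cells and 14.6 ± 3.01 in DKO cells, with a DKO to MycKO difference of -1.16 ± 0.24 (SE, limma adjusted p = 0.0023). In immortalized cells 2 were higher and 3 lower in MycKO, 2 and 0 in MlxKO, and 2 and 0 in DKO cells, or 3 and 3, 2 and 2, and 2 and 3 without library 4, and Fos fell in MycKO cells from 108 ± 85.3 to 4.95 ± 0.964 CPM, by a log2 difference of -3.74 ± 0.59 (SE, limma adjusted p = 0.00032) and -4.65 without library 4. Whether these levels bear on the members was not tested.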

How the data were processed

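RNA was poly-A selected and sequenced as directional libraries from 12 primary and 12 immortalized MEF samples, 3 for each genotype. The authors mapped the reads to GRCm39 and counted them per gene in CLC Genomics Workbench. The deposited values of each table are a normalized signal that the authors name CPM. They sum to 915691 to 1.07721e+06 per library, which differs between libraries, and the scaling is not given in the sources used here. The steps between low values returned whole reads for 100% of values within 0.02 reads, 15986856 to 20966163 per library. Whether reads were counted by strand is not given in the sources used here. Groups were taken from the labels and the column names, and 0 columns belonged to no sample of the series.

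Genes that reached 1 CPM in 3 or more libraries of a table were tested with limma 3.58.1 (R 4.3.3) with a mean trend on log2(CPM + 1), the 4 genotypes of a table in 1 fit. P-values were 2-sided and adjusted by Benjamini-Hochberg over all genes tested, with a threshold of 0.05. An exact permutation test of 3 against 3 libraries cannot go below 0.1 and was not used. Primary and immortalized cells were not tested against each other. The quasi-likelihood test of edgeR 4.0.16 and DESeq2 1.42.0 were run on the recovered reads and called 5565 and 5587 genes between primary MycKO and WT, against 5541 for limma, and 6106 and 6360 between immortalized MycKO and WT, against 6176. All 3 were tested on simulated data first. Other alternatives were a pseudocount of 0.1, no filter or a mean of 5 CPM, other scalings, only the groups compared, a robust prior and leaving out each library.

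Members and lists were chosen with earlier results of these data known. Named with values were Myc, Mlx, the TIMPs, up to 8 members past the threshold in each direction per comparison, those past it in an interaction, the 5 highest per kilobase in each table, and pathway genes past it with a log2 difference of at least 1, up to 3 in each direction. Of this last kind those against WT are given, with Adam33 and Fos also between DKO and MycKO. Positions, exons and promoters came from GRCm39 with GENCODE vM39. Exonic kilobases are the union of annotated exons. Protein sequences were not analysed here.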

Additional observations from a re-analysis of the deposited data

Results flagged for a closer look

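In 19 of the 35 members tested in primary cells the change with Myc loss differed between cells with and without Mlx, by the limma test of the interaction itself. The log2 interaction, which is DKO minus MlxKO less MycKO minus WT, was above 0 in 10 of them, at 1.83 for Mmp9, 1.42 for Mmp12, 1.41 for Mmp10, 1.29 for Mmp3, 0.924 for Adamts3, 0.892 for Mmp13, 0.834 for Adamtsl1, 0.632 for Adamtsl3, 0.624 for Timp1 and 0.583 for Adamts14. It was below 0 in 9, at -1.1 for Adamts1, -0.97 for Adamtsl5, -0.804 for Adamts2, -0.769 for Mmp15, -0.633 for Timp3, -0.596 for Adamts10, -0.581 for Adamts9, -0.534 for Adamts5 and -0.48 for Adamtsl4. Over all genes tested 7.47% were above 0 and 6.07% below. Of the 19 calls 15 held whichever library was left out (not Adamts3, Adamts14, Mmp12 and Mmp15). The members above 0 thus included the stromelysins Mmp3 and Mmp10, Mmp9, Mmp13 and Timp1, and those below 0 the hyalectanases Adamts1, Adamts5 and Adamts9, Adamts2 and Timp3.

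The same test picked out 21 of the 32 members tested in immortalized cells. The interaction was above 0 in 10, at 3.13 for Adamts18, 2.51 for Adamts2, 1.84 for Adamts14, 1.79 for Adamtsl3, 1.61 for Mmp2, 1.46 for Timp3, 1.29 for Adamts1, 1.18 for Adamts5, 1.12 for Adamts9 and 0.741 for Timp2. It was below 0 in 11, at -3.0 for Mmp13, -2.48 for Adamts7, -1.94 for Mmp3, -1.87 for Adamts6, -1.78 for Adamts4, -1.73 for Adamts16, -1.41 for Mmp17, -1.18 for Mmp15, -0.93 for Timp1, -0.77 for Adamtsl5 and -0.57 for Adamts10. These values rest on a group that holds WT library 4, and without that library 13 members were above 0 and 11 below. Over all genes tested 23.7% were above 0 and 23.8% below with library 4, and 28.1% and 28.7% without it. Of the 21 calls 15 held whichever library was left out (not Adamts1, Adamts9, Adamts10, Adamtsl5, Mmp3 and Timp1). Adamts1, Adamts2, Adamts5, Adamts9, Mmp3, Mmp13, Timp1 and Timp3 passed the threshold in both tables with opposite signs, and the difference between the tables was not tested. With 3 libraries in a group, single libraries far from the rest of their group were not tested for.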

How the results depend on the processing

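No called difference of a member changed sign under any alternative. Over all members tested, called or not, the 6922 differences refitted under the alternatives held 284 calls lost, 118 calls gained and 98 changes of sign. Of these, 30 calls gained and 20 changes of sign came without immortalized WT library 4, among them Mmp23 in MycKO and Adamts1 in DKO, which were not called with the library and were lower than WT without it. The median log2 difference of the members in immortalized MycKO also changed sign without that library, from 0.18 to -0.07. The count of members called moved by more than 1.5 times in 3 of the 10 comparisons. For primary MlxKO against WT it was 13, and 6 to 15 with 1 library left out: 6 without WT library 1, 7 without MlxKO library 5 and 8 without MlxKO library 6. For immortalized MlxKO against WT it was 8, and it became 5 with a filter at a mean of 5 CPM, 5 with only the groups compared in the fit, 13 with DESeq2, and 4 to 19 with 1 library left out: 19 without WT library 4, 5 without MlxKO library 5, 5 without MlxKO library 6 and 4 without MlxKO library 7. For immortalized DKO against WT it was 10, and it became 4 with only the groups compared in the fit and 7 to 17 with 1 library left out, the 17 without WT library 3. The cause was not tested. The other comparisons ranged, with 1 library left out, from 25 to 28 (primary MycKO), 26 to 30 (primary DKO), 18 to 21 (primary DKO against MycKO), 16 to 22 (primary interaction), 14 to 21 (immortalized MycKO), 12 to 23 (immortalized DKO against MycKO) and 16 to 24 (immortalized interaction). Scaling by library sum moved the median of all genes by 0.15 in immortalized MlxKO and -0.16 in the immortalized interaction. A fit with only the groups compared cannot be made for the interactions. No paired analysis was possible because the columns carry library numbers that the labels do not tie to their replicate numbers. Members below 3 reads in a library, 0.145 to 0.196 CPM, could not be ordered at this depth.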
